A study of Mus musculus with 6 samples.

Results

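Hepatic stellate cells are the vitamin A-storing pericytes of the liver sinusoid. In the quiescent state they hold retinyl esters in lipid droplets and secrete growth factors and matrix proteins. After injury they can turn into contractile myofibroblasts that carry smooth muscle actin in their cytoskeleton. The measurements described here are those of 10 genes used as markers of quiescent and activated stellate cells other than collagens, namely Dcn, Lrat, Reln, Des, Hgf, Pdgfra, Pdgfrb, Colec11, Ecm1 and Acta2. They were chosen by symbol from the 32212 rows of the deposited count table, all 10 were found, and all 10 passed the filter on low counts that left 13867 genes.

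The livers came from male C57BL/6 mice on normal chow, 3 wild type (WT) and 3 CgA-KO, with 1 poly(A)-selected library per mouse. CgA-KO mice lack chromogranin A, the prohormone encoded by Chga, and the labels give all 6 mice an age of 2 yr. RNA was taken from whole liver tissue, so stellate cells were neither sorted nor counted. The comparison asks how the liver transcriptome of aged CgA-KO mice differs from that of aged WT mice. The libraries held 10558616 to 31087453 counts, with the lowest total in WT replicate 1. Chga had 0 counts in every library and so cannot check the genotype labels. Defining hepatocyte markers were abundant throughout, with Alb from 30668 to 66178 CPM. Levels are CPM, counts scaled to a common library size with factors from trimmed means (TMM), errors of levels are standard deviations over 3 livers, and 3 counts, the level that a count of 0 allows, correspond to 0.0951 to 0.269 CPM for counting error only. Genotypes were compared with edgeR's quasi-likelihood test, with adjustment over all genes tested, and a gene is said to have risen or fallen at an adjusted p-value under 0.05.

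Of the 10 stellate cell genes, 5 rose in CgA-KO livers and none fell. Pdgfra rose most, by 1.49 on the log2 scale, followed by Hgf (1.20), Dcn (0.99), Colec11 (0.98) and Reln (0.91). Over all genes tested, 8.6% were called higher and 3.84% lower in CgA-KO, and 4032 genes had p under 0.05 before adjustment. Of the genes called, 69.1% were higher, and 86.6% (1293 higher and 200 lower) with scaling by library size alone. In 6 of the 10 genes, the 5 above and Pdgfrb, every CgA-KO library lay above every WT library, a separation seen in 19% of all genes tested. The opposite separation was seen in 14.6% of all genes and in 0 of the 10. Lrat, Des and Acta2, which stand for retinoid storage, the intermediate filament and the contractile filament, did not pass the test. The log2 fold change was above 0 in 8 of the 10, against 49.4% of all genes tested. Its median was 0.88 for the 10 genes and -0.01 for all genes tested. In bulk tissue, more cells of a type and more RNA per cell cannot be told apart. Without WT replicate 3 the count of stellate genes called fell to 0, without CgA-KO replicate 1 to 1, and without WT replicate 2 or CgA-KO replicate 2 to 2, in fits with 2 livers in 1 genotype. The count over all genes fell from 1726 to 394, 744, 841 and 976 in the same fits.

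**Figure D1:**
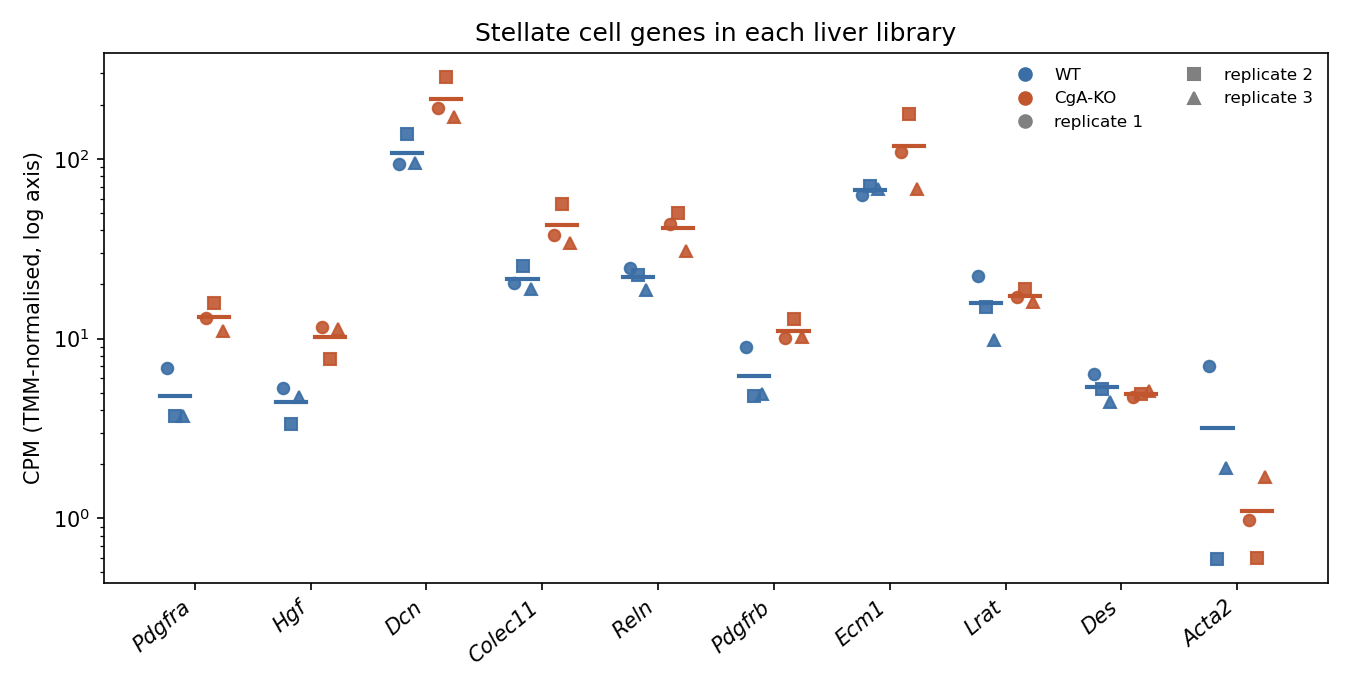
TMM-normalised CPM (log axis) of the 10 stellate cell genes in each of the 6 liver libraries, with WT in blue, CgA-KO in orange, a symbol for each replicate and a bar at the mean of 3 livers. The genotypes do not overlap in Pdgfra, Hgf, Dcn, Colec11, Reln and Pdgfrb, while Acta2 is high in WT replicate 1 alone, at 7.08 CPM.

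The upstream sequences of 2 genes that rose, Pdgfra and Reln, and of 2 that did not pass the test, Lrat and Des, are shown to let the start regions of both kinds of gene be compared. They are the 250 bases before the RefSeq start site in GRCm38.p6, read in the direction of the gene. The windows are chr5:75152001-75152250 on the plus strand for Pdgfra, chr5:22344706-22344955 on the minus strand for Reln, chr3:82903975-82904224 on the minus strand for Lrat and chr1:75360042-75360291 on the plus strand for Des. Each lies upstream of its gene and holds 0 annotated exonic bases. Capitals mark GGGCGG, the core of a GC box, on either strand.
Pdgfra: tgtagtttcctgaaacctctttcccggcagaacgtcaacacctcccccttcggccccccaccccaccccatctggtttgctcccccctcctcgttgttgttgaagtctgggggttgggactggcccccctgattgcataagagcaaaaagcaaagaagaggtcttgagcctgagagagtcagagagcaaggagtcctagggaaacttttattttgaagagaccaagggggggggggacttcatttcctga
Reln: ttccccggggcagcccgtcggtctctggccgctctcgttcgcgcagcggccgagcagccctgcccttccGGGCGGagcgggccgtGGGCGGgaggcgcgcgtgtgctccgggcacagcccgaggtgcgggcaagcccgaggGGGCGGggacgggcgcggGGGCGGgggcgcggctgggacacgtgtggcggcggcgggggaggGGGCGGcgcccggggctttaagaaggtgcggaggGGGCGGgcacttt
Lrat: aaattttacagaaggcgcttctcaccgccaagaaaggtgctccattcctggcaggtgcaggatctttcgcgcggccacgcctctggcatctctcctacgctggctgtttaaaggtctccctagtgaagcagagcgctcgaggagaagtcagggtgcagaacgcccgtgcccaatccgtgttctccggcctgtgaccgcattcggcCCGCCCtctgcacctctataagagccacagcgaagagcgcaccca
Des: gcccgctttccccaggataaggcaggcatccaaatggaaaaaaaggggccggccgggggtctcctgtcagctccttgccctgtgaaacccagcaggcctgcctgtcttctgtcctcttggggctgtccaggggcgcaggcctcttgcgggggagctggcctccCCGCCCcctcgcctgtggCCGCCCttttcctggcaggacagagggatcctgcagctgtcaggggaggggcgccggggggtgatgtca
Reln held 6 matches, Des 2, Lrat 1 and Pdgfra 0, and the matches did not overlap. Of the 8 stellate genes with a RefSeq window, all but Dcn and Pdgfrb, 4 held GGGCGG, against 32.7% of all 32851 windows of this length. TATAAA was found in 1 of the 8, Ecm1, against 12.4% of all windows. The CArG box, the element bound by serum response factor, was searched only in its strict form: CC, 6 bases of A or T, then GG. That form was found in 0 of the 8 against 1.47%. Near matches, such as ccctatatgg and ccttgtttgg in the Acta2 window, were not counted. The Acta2 window lies before the RefSeq start site, but overlaps Acta2 exon of the GENCODE M21 annotation over 217 of its 250 bases. It so reads little of the sequence upstream of the gene as GENCODE places it. GC boxes were thus present both in a gene that rose and in genes that did not pass the test.

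The growth factor and the growth factor receptors of the list come first. Hgf encodes hepatocyte growth factor, a mitogen that stellate cells secrete and hepatocytes receive through Met. It lies on chromosome 5 of GRCm38 (GENCODE M21, as for all genes here, each protein coding) from 16553495 to 16620152. WT replicates 1, 2 and 3 held 5.28, 3.36 and 4.70 CPM, against 11.7, 7.74 and 11.3 CPM in CgA-KO replicates 1, 2 and 3. Every CgA-KO liver lay above every WT liver, with CgA-KO replicate 2 the lowest of its genotype. The increase was 2.31-fold, or 1.20 on the log2 scale (standard error 0.28, edgeR adjusted p = 0.0244). The edgeR adjusted p was 0.0717 without WT replicate 2 and 0.0933 without WT replicate 3. It was 0.0948 when CgA-KO replicate 1 was left out and 0.0719 when CgA-KO replicate 3 was, while the log2 fold change stayed between 1.03 and 1.41.

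Pdgfra encodes the alpha receptor for platelet-derived growth factor (PDGF), found on quiescent stellate cells and on fibroblasts. It lies on chromosome 5 from 75152292 to 75198215. WT replicates 1, 2 and 3 had 6.90, 3.70 and 3.73 CPM, and CgA-KO replicates 1, 2 and 3 had 13, 15.7 and 11.1 CPM. WT replicate 1 was the highest WT library and still lay below all CgA-KO libraries. Mean levels of 4.78 ± 1.84 and 13.2 ± 2.31 CPM (SD, n = 3 livers per genotype) gave a log2 fold change of 1.49, or 2.81-fold (standard error 0.30, edgeR adjusted p = 0.0161). That p became 0.053 without WT replicate 2, 0.0826 without WT replicate 3, 0.0508 when CgA-KO replicate 1 was left out and 0.0559 when CgA-KO replicate 2 was, with log2 fold changes from 1.34 to 1.87 over the 6 fits of edgeR that left out a library.

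Pdgfrb, on chromosome 18 from 61045150 to 61085061, encodes the PDGF beta receptor, which drives the proliferation of activated stellate cells and marks pericytes. It was at 8.96, 4.76 and 4.91 CPM in WT replicates 1, 2 and 3, and at 10.1, 12.8 and 10.3 CPM in CgA-KO replicates 1, 2 and 3. The genotypes did not overlap, but WT replicate 1 came close to the CgA-KO livers. The log2 fold change of 0.85 (95% interval 0.19 to 1.505) did not pass the test (edgeR adjusted p = 0.0910). It was 1.22 without WT replicate 1 and then passed (edgeR adjusted p = 0.0152), and limma-voom also called it (0.98, adjusted p = 0.0435).

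Of the 4 PDGF ligand genes, 1 rose (25%, against 8.6% of all genes tested). Pdgfc, a ligand of the alpha receptor, went from 3.13, 3.53 and 2.12 CPM in WT replicates 1, 2 and 3 to 9.66, 11.5 and 12.9 CPM in CgA-KO replicates 1, 2 and 3, a change of 1.96 on the log2 scale (edgeR adjusted p = 0.00539). It was called in all 6 fits that left out a library. The log2 fold change of Pdgfb was 1.42 (edgeR adjusted p = 0.146), that of Pdgfd 0.67 (0.365) and that of Pdgfa -0.23 (0.626), the last with a change of sign to 0.04 when libraries were scaled by size alone. Among 10 genes that act on or with hepatocyte growth factor, 0 were called by edgeR, against 12.4% of all genes tested in either direction. On the log2 scale the change was -0.50 for Met, its receptor (edgeR adjusted p = 0.152), -0.94 for Hgfac, a protease that activates it (0.0578), and 2.34 for Plaur, the urokinase receptor (0.0602).

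The genes of the 4 secreted matrix and lectin proteins all had log2 fold changes above 0, and 3 of them rose. Dcn encodes decorin, a small leucine-rich proteoglycan that binds collagen fibrils and transforming growth factor beta (TGF-beta). It lies on chromosome 10 from 97479609 to 97518143. WT replicates 1, 2 and 3 held 93.1, 137 and 94.4 CPM, against 192, 285 and 170 CPM in CgA-KO replicates 1, 2 and 3. Replicate 2 was the highest library of both genotypes, and the genotypes did not overlap. The increase was 1.99-fold, or 0.99 on the log2 scale (standard error 0.27, edgeR adjusted p = 0.0436). The adjusted p rose to 0.0657 without WT replicate 1, 0.181 without WT replicate 3, 0.0728 when CgA-KO replicate 1 was left out and 0.0833 when CgA-KO replicate 2 was, with log2 fold changes from 0.79 to 1.20.

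Other proteoglycans of the decorin family were also measured. Of 11 such genes, 8 passed the filter. Of these, 4 rose (50%, against 8.6% of all genes tested) and none fell, and the median log2 fold change was 0.64. Prelp rose by 1.27 (edgeR adjusted p = 0.0147), Lum, encoding lumican, by 1.14 (0.0212), Bgn, encoding biglycan, by 0.94 (0.0342) and Omd, encoding osteomodulin, by 1.25 (0.0445) on the log2 scale. With each library left out in turn, Prelp was called in 5 of 6 fits, Lum and Bgn in 2 and Omd in 1. Kera and Epyc had 0 counts in every library.

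Reln, on chromosome 5 from 21884454 to 22344702, encodes reelin, a large secreted glycoprotein best known for guiding neurons and made in the liver by stellate cells. It was at 24.8, 22.6 and 18.7 CPM in WT replicates 1, 2 and 3, and at 43.5, 49.9 and 30.5 CPM in CgA-KO replicates 1, 2 and 3. All CgA-KO livers were above all WT livers, with CgA-KO replicate 3 the closest. The increase was 1.88-fold, or 0.91 on the log2 scale (standard error 0.22, edgeR adjusted p = 0.0294). The adjusted p was 0.0720 without WT replicate 2, 0.140 without WT replicate 3, 0.0831 when CgA-KO replicate 1 was left out and 0.0738 when CgA-KO replicate 2 was, and the log2 fold change stayed between 0.79 and 1.11.

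Among 8 genes of reelin reception and signalling, 6 passed the filter and 1 of these rose (16.7%, against 8.6% of all genes tested). This was Fyn, a kinase that acts below the reelin receptors and in many immune cells, at 6.14 to 7.52 CPM in WT and 13.3 to 33.9 CPM in CgA-KO livers (log2 fold change 1.69, edgeR adjusted p = 0.0168), which lost the call without WT replicate 2 or WT replicate 3. The receptor gene Vldlr was at 0.39 on the log2 fold scale (edgeR adjusted p = 0.622), and Lrp8 and Dab1 did not pass the filter.

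Colec11 encodes collectin-11, a soluble lectin that binds microbial sugars and starts the lectin pathway of complement. It lies on chromosome 12 from 28594173 to 28623377. WT replicates 1, 2 and 3 had 20.4, 25.2 and 18.9 CPM, and CgA-KO replicates 1, 2 and 3 had 37.6, 56.1 and 34.1 CPM. The genotypes did not overlap, and as for Dcn replicate 2 was the highest library of both. The increase was 1.98-fold, or 0.98 on the log2 scale (standard error 0.23, edgeR adjusted p = 0.0257). Of the stellate genes called it was the least dependent on single libraries, with a call in 5 of the 6 fits that left one out and an adjusted p of 0.124 without WT replicate 3.

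Of 9 other lectin pathway and complement genes, 8 passed the filter. Of these, 2 rose (25%, against 8.6% of all genes tested) and none fell. Colec10, whose product pairs with collectin-11, rose from 18.4, 21.1 and 18.4 CPM in WT replicates 1, 2 and 3 to 53.1, 28.9 and 38.9 CPM in CgA-KO replicates 1, 2 and 3 (log2 fold change 1.06, edgeR adjusted p = 0.0212). CgA-KO replicate 2, the highest for Colec11, was the lowest CgA-KO library for Colec10. The call of Colec10 held in 3 of the 6 fits without a library. Fcna, encoding ficolin A of macrophages, rose by 1.60 on the log2 scale (edgeR adjusted p = 0.00774). Masp2, encoding the protease that collectins activate, had 214 to 268 CPM in WT and 150 to 169 CPM in CgA-KO livers and was not called (log2 fold change -0.60, edgeR adjusted p = 0.0781).

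Ecm1, on chromosome 3 from 95734147 to 95739569, encodes extracellular matrix protein 1, a glycoprotein that holds TGF-beta in its latent form in liver. WT replicates 1, 2 and 3 held 62.8, 70.3 and 67.9 CPM, against 109, 177 and 67.6 CPM in CgA-KO replicates 1, 2 and 3. The WT livers were close to each other, while CgA-KO livers spread 2.61-fold and CgA-KO replicate 3 lay within the WT range. The log2 fold change of 0.81 (95% interval 0.09 to 1.53) did not pass the test (edgeR adjusted p = 0.129). It was 0.43 without CgA-KO replicate 2, and 1.12 when CgA-KO replicate 3 was left out, where the gene was called (edgeR adjusted p = 0.0348).

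TGF-beta, the main inducer of the myofibroblast state, is bound or held latent by both decorin and Ecm1. Of 19 genes of its pathway, 18 passed the filter. Of these, 2 rose and none fell, and the median log2 fold change was 0.24. The share that rose, 11.1%, was near the 8.6% of all genes tested. Tgfb1, encoding the ligand TGF-beta 1, rose from 9.58, 6.17 and 4.66 CPM in WT replicates 1, 2 and 3 to 26.8, 28.6 and 24.9 CPM in CgA-KO replicates 1, 2 and 3 (log2 fold change 2.00, edgeR adjusted p = 0.00484), and was called in all 6 fits that left out a library. Thbs1, encoding thrombospondin 1, which can free the latent ligand, rose by 3.92 (edgeR adjusted p = 0.00894), with 14.7 CPM in CgA-KO replicate 2 against 3.11 and 5.07 in the other CgA-KO livers. It lost the call without WT replicate 2 or WT replicate 3. The receptor genes Tgfbr2 (0.51, edgeR adjusted p = 0.169) and Tgfbr3 (0.44, 0.280) were not called.

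Lrat encodes lecithin retinol acyltransferase, the enzyme that makes the retinyl esters of stellate cell droplets. It lies on chromosome 3 from 82892579 to 82903973. It was at 22.2, 15.0 and 9.87 CPM in WT replicates 1, 2 and 3, and at 17.04, 18.8 and 16.0 CPM in CgA-KO replicates 1, 2 and 3. The 3 CgA-KO livers lay within the range of the WT livers, which spread 2.25-fold. Its log2 fold change was 0.15, with a 95% interval of -0.49 to 0.78 that allows changes from 0.713-fold to 1.72-fold (edgeR adjusted p = 0.775). It was -0.11 without WT replicate 3 and 0.51 without WT replicate 1, and neither passed the test.

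Of 18 genes that handle retinoids, 15 passed the filter. Of these, 2 rose (13.3%, against 8.6% of all genes tested) and none fell, and the median log2 fold change was -0.03. Stra6l, encoding a retinol-binding protein 4 receptor, rose from 71.8, 60.2 and 67.2 CPM in WT replicates 1, 2 and 3 to 156, 125 and 136 CPM in CgA-KO replicates 1, 2 and 3 (log2 fold change 1.06, edgeR adjusted p = 0.0108), and lost the call only without WT replicate 3. Cyp26a1, encoding the enzyme that breaks down retinoic acid and itself induced by it, rose by 2.27 (edgeR adjusted p = 0.0246), with 78.1 CPM in CgA-KO replicate 2 against 21.8 and 22.4 in the others, and was called in 3 of the 6 fits without a library.

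The cytoskeletal genes Des and Acta2 did not pass the test. Des encodes desmin, the intermediate filament of rodent stellate cells and of muscle, on chromosome 1 from 75360329 to 75368579. WT replicates 1, 2 and 3 held 6.36, 5.23 and 4.45 CPM, against 4.74, 4.92 and 5.11 CPM in CgA-KO replicates 1, 2 and 3. All CgA-KO livers lay inside the WT range and within 1.08-fold of each other. The log2 fold change was -0.11 (95% interval -0.68 to 0.46, edgeR adjusted p = 0.808), and its sign changed to 0.14 with scaling by library size alone and to 0.06 without WT replicate 1. The interval allows changes from 0.623-fold to 1.37-fold. Vim, encoding vimentin, the other main filament of these cells and also of leukocytes, rose by 1.74 (edgeR adjusted p = 0.0194), with 40.02, 117 and 64.9 CPM in CgA-KO replicates 1, 2 and 3, but not without WT replicate 2 or WT replicate 3. Vim was the gene that rose among 5 tested of 6 intermediate filament and linker genes (20%, against 8.6% of all genes tested). Their median log2 fold change was -0.29. Exons of Des, Pdgfra and Reln overlap annotated antisense genes, and the sources used here do not say whether counting used strand. On the same strand, exons of Hgf overlap the annotated gene Gm43489, and those of Ecm1 and Pdgfra overlap microRNA genes. The effect of these overlaps on the counts was not tested.

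Acta2 encodes alpha smooth muscle actin, the marker of activated stellate cells and of vascular smooth muscle, on chromosome 19 from 34241090 to 34255590. Its counts were low, with 79, 14 and 45 counts in WT replicates 1, 2 and 3 and 21, 19 and 38 in CgA-KO replicates 1, 2 and 3. These correspond to 7.08, 0.596 and 1.91 CPM in WT and 0.9749, 0.603 and 1.70 CPM in CgA-KO livers. WT replicate 1 stood above all other libraries and WT replicate 2 was level with the lowest CgA-KO liver. The log2 fold change was -1.51 (95% interval -3.33 to 0.32, edgeR adjusted p = 0.254), and -0.18 without WT replicate 1 (edgeR adjusted p = 0.888). The actin genes share long stretches of sequence, so reads could be split among them. Of the other 5 isoform genes, 2 passed the filter and 1 of these rose (50%, against 8.6% of all genes tested). The cytoplasmic Actg1 rose by 1.56 (edgeR adjusted p = 0.00740) and Actb had 0.98 (0.0545). Acta1, Actc1 and Actg2 did not pass the filter.

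WT replicate 1 was also the highest of the 6 libraries for 9 of 10 smooth muscle markers, the other being Mcam. Some of these markers rest on few counts in WT replicate 1, the library with the lowest total. Actg2 had 7 counts in it against 0 to 5 in the other libraries. Tagln, encoding transgelin, had 17.8 CPM in WT replicate 1 against 4.59 and 4.32 CPM in WT replicates 2 and 3. Myh11, the smooth muscle myosin, had 5.02 against 1.19 and 2.67 CPM. Of 10 smooth muscle markers, 6 passed the filter and edgeR called 0, against 12.4% of all genes tested called in either direction. Cnn1, encoding calponin, had 0 counts in WT replicate 2 and CgA-KO replicate 2. Their summed level was 83.0 to 161 CPM in WT and 89.4 to 103 CPM in CgA-KO livers. The part of vessel smooth muscle in the Acta2 values was not tested.

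**Figure D2:**
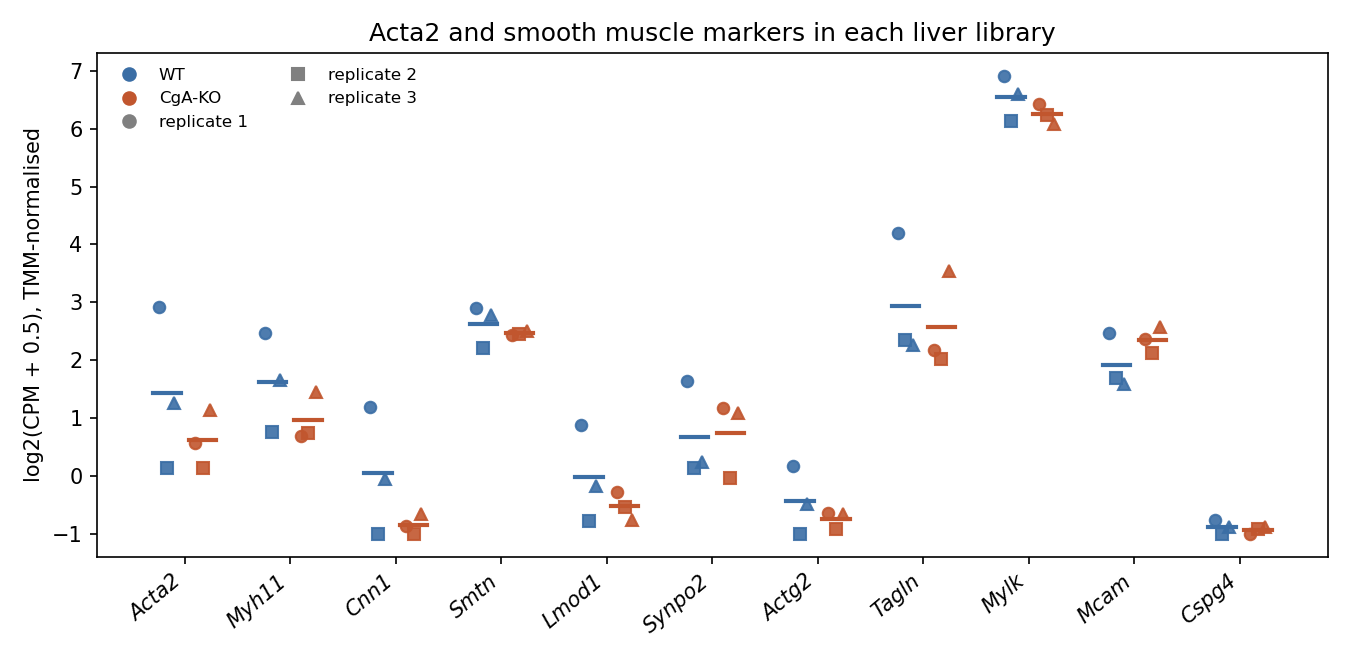
Log2 of TMM-normalised CPM plus 0.5 for Acta2 and the 10 smooth muscle markers in each liver library, with WT in blue, CgA-KO in orange, a symbol for each replicate and bars at the mean of 3 livers. WT replicate 1 is the highest library for Acta2 and for 9 of the 10 markers, and CgA-KO replicate 3 for the other, Mcam. Some markers rest on few counts, such as Actg2 with 7 in WT replicate 1.

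**Figure D3:**
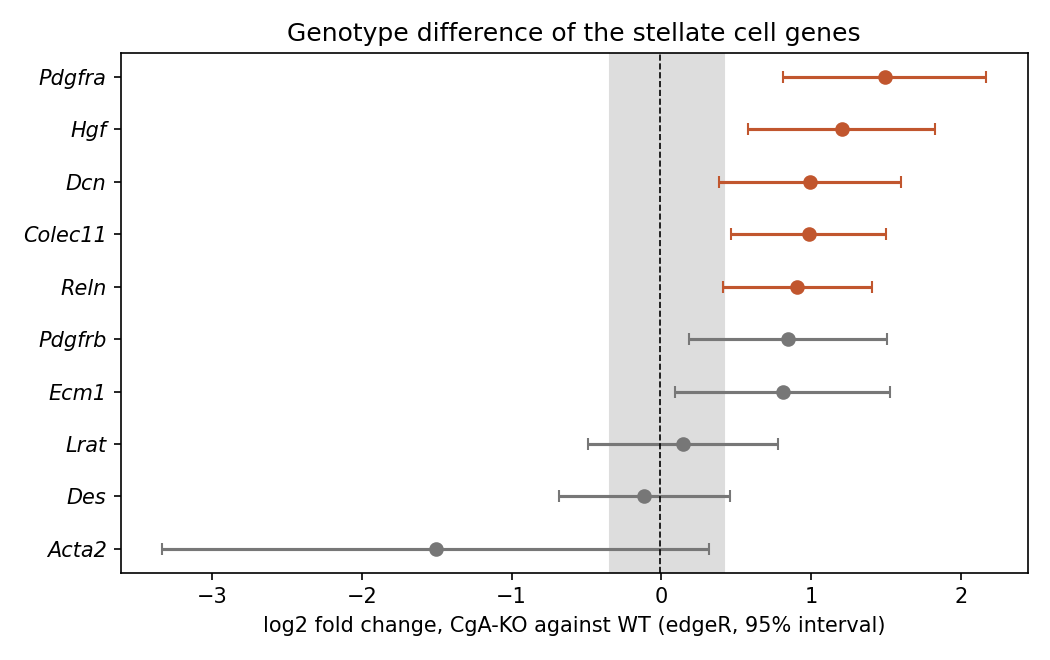
Log2 fold change of CgA-KO against WT for the 10 stellate cell genes, with 95% intervals from edgeR, orange for genes past the threshold and grey for the others. The dashed line is the median of all genes tested, -0.01, and the grey band their middle quartiles, from -0.34 to 0.42.

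Per length, the same 3 genes led in both genotypes. Levels per kilobase of merged exon in WT livers were 26.6 ± 1.53 CPM per kb for Ecm1, 18.5 ± 4.30 for Dcn and 13.3 ± 2.04 for Colec11, all separate in their ranges over 3 livers. Lrat followed at 2.93 ± 1.16 CPM per kb, and Acta2, Des, Pdgfrb, Reln, Hgf and Pdgfra lay between 1.45 and 0.476 CPM per kb, with ranges that overlapped from each to the next except between Reln and Hgf. In CgA-KO livers Ecm1 (46.6 CPM per kb), Dcn (37.0) and Colec11 (26.3) overlapped each other in turn, Lrat (3.23) stood apart from its neighbours, and Acta2 was last with 0.498 ± 0.255 CPM per kb. Pdgfra was last in WT at 0.476 ± 0.183 CPM per kb, and stood at 1.32 ± 0.230 CPM per kb in CgA-KO livers, next to Hgf and Des with overlapping ranges.

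Ratios within a library depend on scaling only through the constant added to each gene, which matters for the low counts of Acta2, and show whether 2 genes changed unequally. For 5 ratios, 0.5 CPM was added to each gene. The log2 ratio of Pdgfra to Pdgfrb was -0.35, -0.33 and -0.36 in WT replicates 1, 2 and 3, and 0.35, 0.28 and 0.10 in CgA-KO replicates 1, 2 and 3. The WT livers agreed closely although their Pdgfra levels spread 1.86-fold, and every CgA-KO liver lay above every WT liver. The ratio is of CPM not divided by length, so its sign does not rank the levels of the 2 receptors, and per kilobase Pdgfrb had the higher mean in both genotypes. The difference of 0.59 had an exact two-sided permutation p of 0.1 (adjusted 0.125 over 5 ratios), the smallest that this test allows for 3 livers against 3, so it cannot reach 0.05.

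The ratio of Pdgfrb to Lrat was also higher in all CgA-KO livers, by 0.63, and that of Colec11 to Lrat by 0.74. Both had the same exact permutation p of 0.1 (adjusted 0.125). The separation of Acta2 to Pdgfrb depended on the constant. With 0.5 CPM it was -0.32, -2.26 and -1.17 in WT replicates 1, 2 and 3 and -2.84, -3.59 and -2.29 in CgA-KO replicates 1, 2 and 3, a log2 difference of -1.66 without overlap (exact permutation p = 0.1, adjusted 0.125). With 0.1 CPM the genotypes overlapped, since WT replicate 2 at -2.81 lay below CgA-KO replicate 3 at -2.52 (difference -1.83, exact permutation p = 0.2). Acta2 to Lrat, the ratio of an activation marker to a quiescence marker, overlapped between the genotypes, with -2.51 ± 1.17 in WT and -3.53 ± 0.62 in CgA-KO livers (exact permutation p = 0.3, adjusted 0.3).

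**Figure D4:**
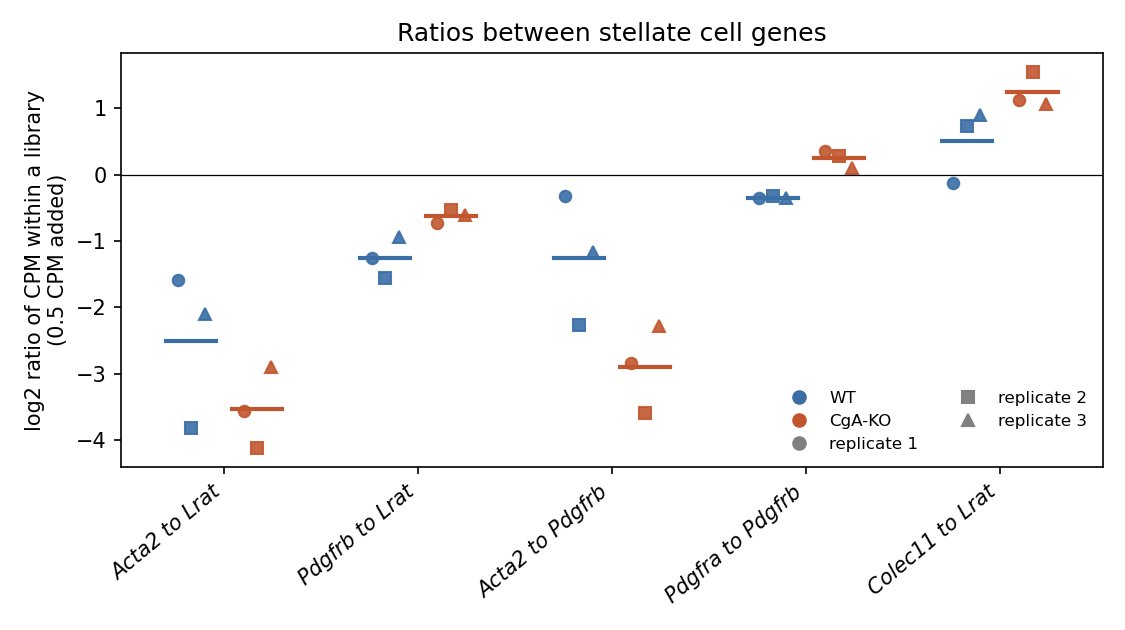
Log2 ratio of CPM between pairs of stellate cell genes within each library, after adding 0.5 CPM, with WT in blue, CgA-KO in orange and bars at the mean of 3 livers. For Pdgfra to Pdgfrb all CgA-KO libraries lie above all WT libraries, and CPM are not divided by gene length.

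The genes varied together to different degrees. Over the 6 libraries, Pearson's r of log2 CPM was highest between Dcn and Colec11 (0.992) and between Pdgfra and Pdgfrb (0.971), and lowest between Dcn and Acta2 (-0.715). These values describe 6 libraries that share the genotype difference and the scaling. CgA-KO replicate 2 was the highest CgA-KO library in 7 of the 10 genes, and WT replicate 1 the highest WT library in 7. The genes whose log2 CPM followed the mean standardised profile of the 10 most closely over the 6 libraries were P2ry10 (r = 0.997), Gp1bb (0.996) and Ildr2 (0.994). They were ranked first among all other genes tested, so high r values come with the ranking. Gp1bb had 0 to 30 counts per library, and P2ry10 had 18, 6 and 3 counts in WT replicates 1, 2 and 3. None of these genes was called, with edgeR adjusted p of 0.0785 for P2ry10, 0.0844 for Gp1bb and 0.330 for Ildr2.

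Other genes known from stellate cells were examined beside the 10. Of 18 such genes, all passed the filter. Of these, 6 rose (33.3%, against 8.6% of all genes tested) and none fell, and the median log2 fold change was 0.65. Rgs5, a pericyte regulator of G-protein signalling, had 27.0, 32.8 and 34.1 CPM in WT replicates 1, 2 and 3 and 76.4, 69.2 and 87.1 CPM in CgA-KO replicates 1, 2 and 3 (log2 fold change 1.31, edgeR adjusted p = 0.00550), and was called in all 6 fits that left out a library. Abcc9, a subunit of a pericyte potassium channel, rose by 1.06 (edgeR adjusted p = 0.0183), Sod3, extracellular superoxide dismutase, by 1.55 (0.0295) and Ngfr, the low-affinity nerve growth factor receptor, by 1.52 (0.0379). Lhx2 and Hhip, named after their values were seen to complete the count, rose by 1.17 and 1.37. These 5 were called in 1 to 3 of the 6 fits without a library.

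Of 18 genes of the myofibroblast state other than collagens, 15 passed the filter. Of these, 5 rose (33.3%, against 8.6% of all genes tested) and 1 fell, and the median log2 fold change was 1.03. Tnc, encoding the matrix protein tenascin C, had 0.896, 0.383 and 0.296 CPM in WT replicates 1, 2 and 3 and 3.16, 5.93 and 3.99 CPM in CgA-KO replicates 1, 2 and 3 (log2 fold change 3.15, edgeR adjusted p = 0.00774). Postn, encoding periostin, rose by 1.72 (edgeR adjusted p = 0.00800), and Tgfbi, a matrix protein induced by TGF-beta and also made by macrophages, by 1.25 (0.0110). Tnc and Postn were called in all 6 fits that left out a library and Tgfbi in 5. Thy1, a surface antigen of portal fibroblasts and of T cells, rose by 4.03 (edgeR adjusted p = 0.0350), and rested on 50.8 CPM in CgA-KO replicate 2 against 5.94 and 4.57 CPM in CgA-KO replicates 1 and 3. Without CgA-KO replicate 2 its log2 fold change was 2.05 and it was not called, and it was called in only 1 of the 6 such fits. The gene that fell was Tpm2, a muscle tropomyosin named after its value was seen, with 12.0, 7.19 and 3.94 CPM in WT replicates 1, 2 and 3 against 2.51 to 3.09 CPM in CgA-KO livers (log2 fold change -1.44, edgeR adjusted p = 0.0467). It was called in only 1 of 6 fits without a library, and its log2 fold change was -0.94 without WT replicate 1. Tagln, a member of this list too, was not called (log2 fold change -0.50, edgeR adjusted p = 0.648, and 0.52 without WT replicate 1).

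**Figure D5:**
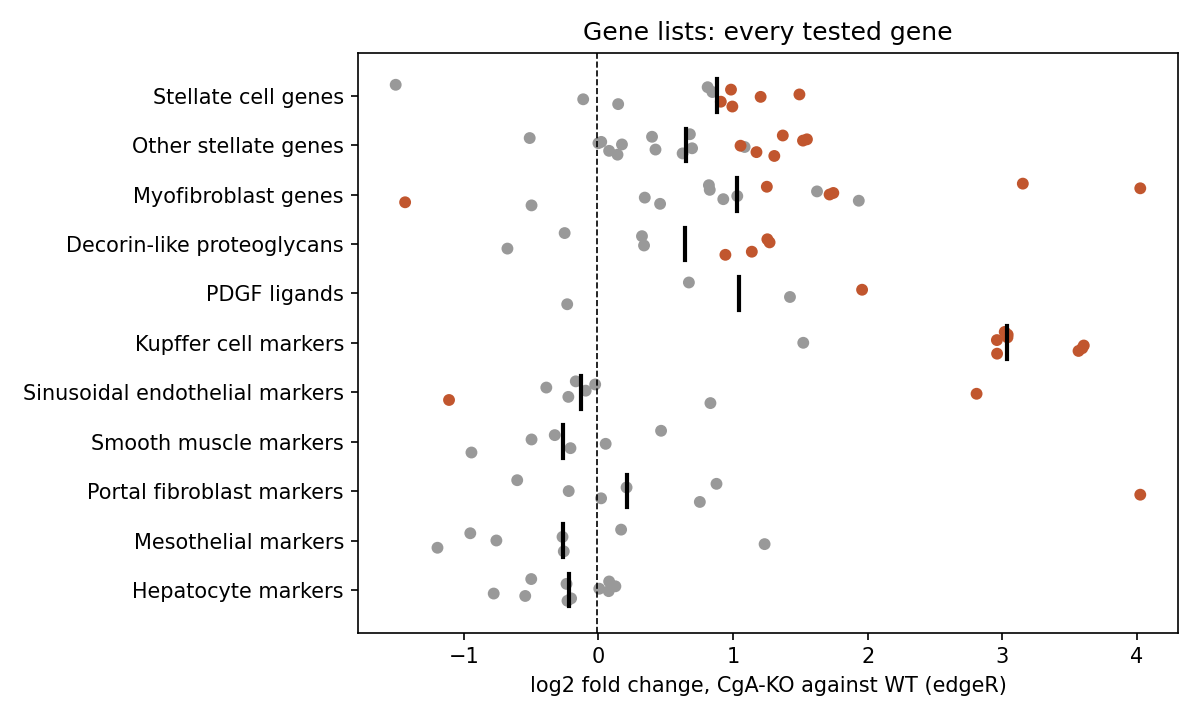
Log2 fold change of CgA-KO against WT for every tested gene of 11 gene lists, with orange for genes past the threshold, grey for the others, a black bar at each list's median and a dashed line at the median of all genes. The median is 0.88 for the stellate cell genes, 3.04 for the Kupffer cell markers and -0.22 for the hepatocyte markers.

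Markers of other liver cells were read in the same libraries. Of 9 markers of Kupffer cells, the resident macrophages, 8 rose (88.9%, against 8.6% of all genes tested) and none fell. Their median was 3.04 on the log2 fold scale. Their summed level was 123 to 317 CPM in WT and 1220 to 1919 CPM in CgA-KO livers. WT replicate 1 held the highest summed level among WT livers. It was also the highest WT library for 7 of the 10 stellate genes: Pdgfra, Pdgfrb, Lrat, Acta2, Reln, Hgf and Des. WT replicate 1 also led the WT livers in the sums of sinusoidal endothelial, portal fibroblast, cholangiocyte and smooth muscle markers. It was the lowest WT liver for mesothelial and hepatocyte markers. CgA-KO replicate 1 held the highest Kupffer sum, 1919 CPM, but was the highest CgA-KO library for 1 of the 10 stellate genes, against 7 for CgA-KO replicate 2. Of 8 sinusoidal endothelial markers, 1 rose (12.5%) and 1 fell, against 8.6% and 3.84% of all genes tested. Lyve1 rose by 2.81 (edgeR adjusted p = 0.00304), and Clec4g fell, with a log2 fold change of -1.11 (0.0135). The summed levels of the 8 were 147 to 195 CPM in WT and 154 to 208 CPM in CgA-KO livers. Of 10 portal fibroblast markers, 7 passed the filter and 1 of these, Thy1, rose (14.3%, against 8.6% of all genes tested). The summed levels of the 10 overlapped, at 44.3 to 72.4 CPM in WT and 50.1 to 112 CPM in CgA-KO livers. Of 7 mesothelial markers edgeR called 0, with summed levels of 4.75 to 16.5 CPM in WT and 5.20 to 11.3 CPM in CgA-KO livers. Of 6 cholangiocyte markers, 5 passed the filter and edgeR called 0, with 19.1 to 30.7 and 18.7 to 74.0 CPM. All 10 hepatocyte markers passed the filter and edgeR called 0 of them. Their summed levels were 64081 to 104578 CPM in WT and 55912 to 93048 CPM in CgA-KO livers. Of all genes tested, 12.4% were called in either direction, so 0 calls in lists this short do not set them apart. The part of these cell types in the values of the stellate cell genes was not tested.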

How the data were processed

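Poly(A)-selected libraries came from whole liver, 3 from WT and 3 from CgA-KO mice. The authors deposited gene counts made with Salmon 1.4.0 against the GRCm38 transcriptome, and how transcripts were summed to genes is not given in the sources used here. Of the 32212 rows, 78 repeat a symbol. Totals of 10558616 to 31087453 counts limit precision most for Acta2. From these, TMM-normalised CPM, log2 fold changes and p-values were computed with edgeR 4.0.16 (R 4.3.3; filterByExpr with a minimum count of 10, robust quasi-likelihood fit, Benjamini-Hochberg adjustment over 13867 genes). Standard errors were derived from the F statistic. DESeq2 1.42.0, limma-voom (limma 3.58.1), other scalings and filters, a stricter threshold, a replicate block and leaving out each library were the alternatives. Scripts were tested on simulated data. The stellate genes and all lists were chosen with earlier results of these data known. From each list, up to 4 tested genes with the smallest p-values were named, with the 3 genes most like the mean profile, with additions stated in the text; a gene covered by this rule is not reported here. Each library is 1 mouse.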

Additional observations from a re-analysis of the deposited data

How the results depend on the processing

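Over all genes, 1726 were called by edgeR, 2592 by DESeq2, 360 at an adjusted p under 0.01, and 394 to 2126 when 1 library was left out, with fewer samples fitted. Of the 10 stellate genes, 5 were called, 0 at the 0.01 threshold, where Dcn (0.99), Reln (0.91), Hgf (1.20), Pdgfra (1.49) and Colec11 (0.98) lost their calls, and 0 to 5 when 1 library was left out. Of the 156 tested genes in the other lists, 35 were called, where 12.4% of all genes tested were. The count was 15 at 0.01 and 16 to 35 without 1 library. Scaling by library size alone moved the median log2 fold change of the 10 genes from 0.88 to 1.13 and that of all genes from -0.01 to 0.26. Pdgfrb passed with limma-voom (0.98). Without 1 library the log2 fold changes ranged from 0.79 to 1.20 for Dcn, -0.11 to 0.51 for Lrat, 0.79 to 1.11 for Reln, -0.24 to 0.061 for Des, 1.03 to 1.41 for Hgf, 1.34 to 1.87 for Pdgfra, 0.69 to 1.22 for Pdgfrb, 0.78 to 1.15 for Colec11, 0.43 to 1.12 for Ecm1 and -2.02 to -0.18 for Acta2. Signs changed for Lrat (-0.11 without WT replicate 3), for Des (0.14), Pdgfa (0.037) and Serpinc1 (0.054) with library size alone, for Des (0.061), Cryab (0.014), Tagln (0.52) and Dpt (0.11) without WT replicate 1, for Lrrn4 (0.27) without WT replicate 2 and for Spp1 (-0.091) without CgA-KO replicate 2. Without 1 library Cryab ranged from -0.53 to 0.014, Tagln from -1.20 to 0.52, Dpt from -0.95 to 0.11, Lrrn4 from -1.40 to 0.27 and Spp1 from -0.091 to 1.27. The cause was not tested. Same-numbered libraries did not deviate together (r of 0.199, 0.0127 and -0.0659), so the numbers were not taken as a pairing. With the replicate block 1498 genes and 5 stellate genes were called.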
